A study of Rattus norvegicus with 6 samples.

Results

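The nuclear genes for the last 3 complexes of the respiratory chain were followed in rat liver 14 days after trauma, under AKOC or Quik-clot dressings. Their symbols begin with Uqcr (complex III), with Cox and a number from 4 to 8 (complex IV) or with Atp5 (complex V). Of 20104 genes in the table, 16902 are protein-coding, and 43 of those match this pattern. A gene was kept with 10 or more counts in at least 3 libraries, which left 38 members: 8 of complex III, 12 of complex IV and 18 of complex V. AKOC, which the labels do not spell out, comes from a study of kaolin on cotton, and Quik-clot is a commercial haemostatic dressing that served as the control. Each dressing had 3 libraries of total RNA from repaired liver. All 6 samples share the trauma and the day of collection, no uninjured liver is among them, and the sources used here do not give the strain, sex or age of the rats. Whether each library came from its own animal is not stated in the labels, and every p-value here therefore reflects only the variation among these libraries.

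The 3 complexes carry out the last steps of oxidative phosphorylation in the inner mitochondrial membrane. Complex III passes electrons from ubiquinol to cytochrome c, complex IV (cytochrome c oxidase) passes them on to oxygen, and both pump protons that complex V (ATP synthase) lets back through a rotating ring of c subunits to make ATP. Each complex joins subunits from nuclear genes to a few made inside the mitochondrion, and hepatocytes, which spend much ATP on urea and glucose synthesis, are rich in mitochondria. Nuclear respiratory genes are known to be regulated through promoter sites for NRF1, for ETS factors such as GABP, for YY1 and for the estrogen-related receptors (ERR).

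The promoters of 7 members are shown as examples. They are the complex III members of the 2 largest fold changes, and members of complexes IV and V with larger and smaller ones. RefSeq promoter windows (build GRCr8, from 250 bases before to 50 after the start) matched 33 of the 38 members, all but Atp5pd, Cox6a1, Cox6c, Uqcr11 and Uqcrb. The 120 bases printed run from 100 before to 20 after the start, 5′ to 3′ on the strand of the gene. Capitals mark CCGGAAG (ETS), GCGCATGC (NRF1), AAGATGG (YY1) or their reverse complements CTTCCGG, GCATGCGC and CCATCTT.
Uqcrc1: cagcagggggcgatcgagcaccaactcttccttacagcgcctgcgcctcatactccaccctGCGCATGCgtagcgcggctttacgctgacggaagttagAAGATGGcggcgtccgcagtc
Uqcrc2: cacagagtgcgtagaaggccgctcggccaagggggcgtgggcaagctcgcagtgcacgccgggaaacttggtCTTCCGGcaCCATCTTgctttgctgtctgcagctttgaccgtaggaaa
Cox8a: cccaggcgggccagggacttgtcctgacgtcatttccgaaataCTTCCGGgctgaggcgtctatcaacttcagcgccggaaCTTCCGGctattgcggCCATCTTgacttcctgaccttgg
Cox5a: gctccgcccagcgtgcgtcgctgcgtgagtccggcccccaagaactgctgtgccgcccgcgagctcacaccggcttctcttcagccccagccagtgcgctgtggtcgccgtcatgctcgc
Cox7a2l: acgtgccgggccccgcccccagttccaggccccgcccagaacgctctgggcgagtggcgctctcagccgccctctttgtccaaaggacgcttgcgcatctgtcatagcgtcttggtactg
Atp5po: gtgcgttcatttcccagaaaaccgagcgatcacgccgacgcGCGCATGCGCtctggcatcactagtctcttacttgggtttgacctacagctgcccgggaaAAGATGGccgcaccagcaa
Atp5mc2: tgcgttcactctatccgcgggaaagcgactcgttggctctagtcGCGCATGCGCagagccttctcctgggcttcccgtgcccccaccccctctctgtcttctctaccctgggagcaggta
On GRCr8 these lie as follows: Uqcrc1 at chr8:118468123-118468242 on the plus strand, Uqcrc2 at chr1:184599140-184599259 on the plus strand and Cox8a at chr1:213833604-213833723 on the minus strand. Cox5a at chr8:66818184-66818303 on the plus strand and Cox7a2l at chr6:16936474-16936593 on the plus strand follow, then Atp5po at chr11:44657464-44657583 on the minus strand and Atp5mc2 at chr7:135678199-135678318 on the minus strand. Uqcrc1 and Atp5po, the members with the largest fold change in complexes III and V, each hold an NRF1 and a YY1 word. Atp5pb and Atp5mc1, next in complex V (log2 fold change 0.42 each) and not shown, hold none of the words in their whole windows. A link between words and fold changes was not tested. Atp5mc2, with the smallest fold change in complex V, holds the same NRF1 palindrome as Atp5po, in which GCGCATGC and its reverse complement overlap. Cox5a, with the smallest p of complex IV, and Cox7a2l, with its one negative fold change, hold none of these letters in this window.

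Over the whole 300-base windows, the ETS word occurred in 12 of 33 members (36.4%), against 16.8% of the 11259 tested genes with a window and 9.22% of all 27457 windows. The NRF1 word occurred in 5 members (15.2%, against 4.69% and 2.66%) and the YY1 word in 9 (27.3%, against 8.24% and 7.30%). At least one of the 3 occurred in 18 members (54.5%, against 26.6% and 17.5%), and no ETS and YY1 match overlapped in a member. The nuclear subunits of complex I also lay above the tested genes, with at least one word in 39.4% of 33 windows. Taken singly, ETS stood at 21.2% there, NRF1 at 6.06% and YY1 at 21.2%. The ERR word TCAAGGTCA, searched on both strands like the others, occurred in Atp5mc3 alone (3.03%, against 0.266% and 0.412%). All 5 members with the NRF1 word belong to complexes III and V, and it was in 0 of the 10 complex IV windows. These are matches of letters, not measured binding.

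In the livers themselves the members differed widely in level. FPKM, the deposited count scaled to transcript length and library total, is used here to compare levels between genes. Averaged over the 6 libraries, it ran from 3.05 for Cox7a2l2 to 507 for Atp5f1b, with a median of 147 over the 38 members. The order of levels was led by Atp5f1b, the catalytic beta subunit of ATP synthase, at 507 ± 39.3 (SD, n = 6). Cox4i1, the general isoform of complex IV subunit 4, followed at 347 ± 24.3, and Atp5f1a, the alpha subunit, at 289 ± 42.8. Atp5f1b stood above both beyond the spread, while the values of Cox7b (274 ± 28.5) and Cox7c (273 ± 23.7) lay within the spread of Atp5f1a and of each other. Complex III members lay lower (median 72.1, from 52.0 for Uqcr11 to 131 for Uqcrh) than those of complex IV (median 169) and complex V (median 159). Atp5if1, the inhibitor that binds ATP synthase when the membrane potential collapses, was the lowest of complex V at 29.5 ± 5.75.

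**Figure D1:**
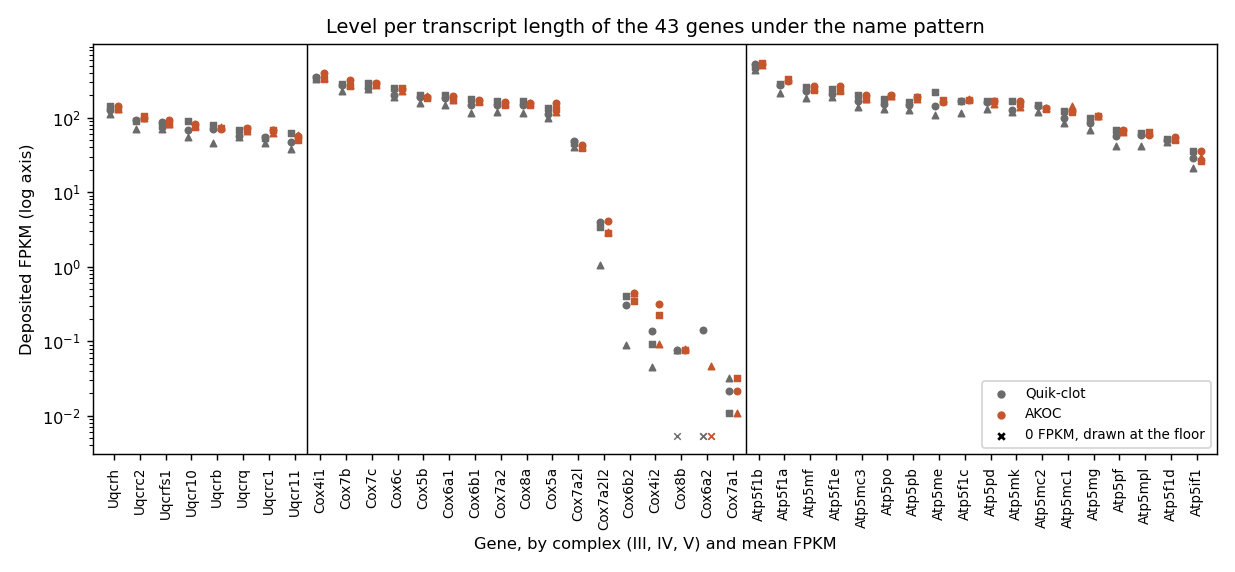
Deposited FPKM (log axis) of the 43 genes under the name pattern, by complex and ordered by mean, with 1 point per library and a marker shape per replicate number. Of these genes, 37 sit between 21.0 and 548 FPKM in every library, Cox7a2l2 stands at 3.05 on average, and the 5 lowest, all complex IV isoforms, lie under 1.

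Complex IV uses isoforms that differ between tissues, and the forms known from liver were the more abundant ones of each family here. The 5 genes left out by the count minimum were Cox4i2, Cox6a2, Cox6b2, Cox7a1 and Cox8b, isoforms known mainly from other tissues such as lung (Cox4i2), heart and skeletal muscle (Cox6a2, Cox7a1, Cox8b) and testis (Cox6b2). Cox4i2 had 6, 4 and 2 counts after Quik-clot and 14, 10 and 4 after AKOC, so 2 libraries reached the minimum. Cox6b2 had 7, 9 and 2 counts after Quik-clot and 10, 8 and 10 after AKOC. Cox6a2, Cox7a1 and Cox8b had 0 to 3 counts in every library. The member just inside the minimum was Cox7a2l2, with 72, 62 and 19 counts after Quik-clot and 75, 52 and 53 after AKOC. All 38 members had 10 or more counts in all 6 libraries, so none was kept through 1 dressing alone. The 4 muscle markers in the table summed to 0.202 to 0.486 CPM, and Adipoq, the adipocyte hormone, stood at 0 to 0.0267 CPM. Cidec, a lipid droplet gene that was the one tested fat marker, stood at 37.6 to 54.3 CPM.

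The first question was how the 38 members compared between dressings as a group. After AKOC 37 of the 38 had a positive log2 fold change against 48.0% of the 13872 genes tested, although Atp5mc2 turned negative (-0.04) when libraries were scaled by their totals only. The positive members were 8 of 8 in complex III, 11 of 12 in complex IV and 18 of 18 in complex V, with Cox7a2l as the exception. The median log2 fold change was 0.26 in complex III, 0.21 in complex IV and 0.25 in complex V, against -0.01 over all genes tested. These are small differences: the median over all members, 0.24, compares with a median SE of 0.12 for one member. With scaling by totals the medians were 0.17, 0.12 and 0.17, against -0.09 over all genes. In whole liver, fewer cells of a type and less RNA per cell cannot be told apart.

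No member passed the genome-wide test. With Benjamini-Hochberg adjustment, edgeR's quasi-likelihood test called 0 of 13872 genes (0%) at an adjusted p under 0.05, and the members' adjusted p ran from 0.281 to 0.870. Before adjustment, 941 genes were higher and 790 lower at a p under 0.05. DESeq2, which gave a p-value for 20074 genes, called 186 of them higher and 94 lower after adjustment. Of the 38 members it called 1, Uqcrc1 (DESeq2 adjusted p = 0.0442). At an unadjusted p under 0.05 in the edgeR test, 11 of the 38 members were higher, against 6.78% of all genes tested. None was lower, against 5.69%. The 11 were Uqcrc1, Uqcrc2 and Uqcrq of complex III, Cox5a of complex IV, and Atp5po, Atp5pb, Atp5mg, Atp5mc1, Atp5f1a, Atp5pf and Atp5f1e of complex V. This count was 1 with scaling by library totals, against 3.26% of all genes tested. It was also 1 with limma on log2 FPKM, against 3.37% or 3.53%. With a correction for transcript length it was 8, against 6.78% of all genes. It was 4 without Quik-clot replicate 1, 23 without Quik-clot replicate 2, 4 without Quik-clot replicate 3, 3 without AKOC replicate 2 and 5 without AKOC replicate 3, and it stayed at 11 without AKOC replicate 1.

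**Figure D2:**
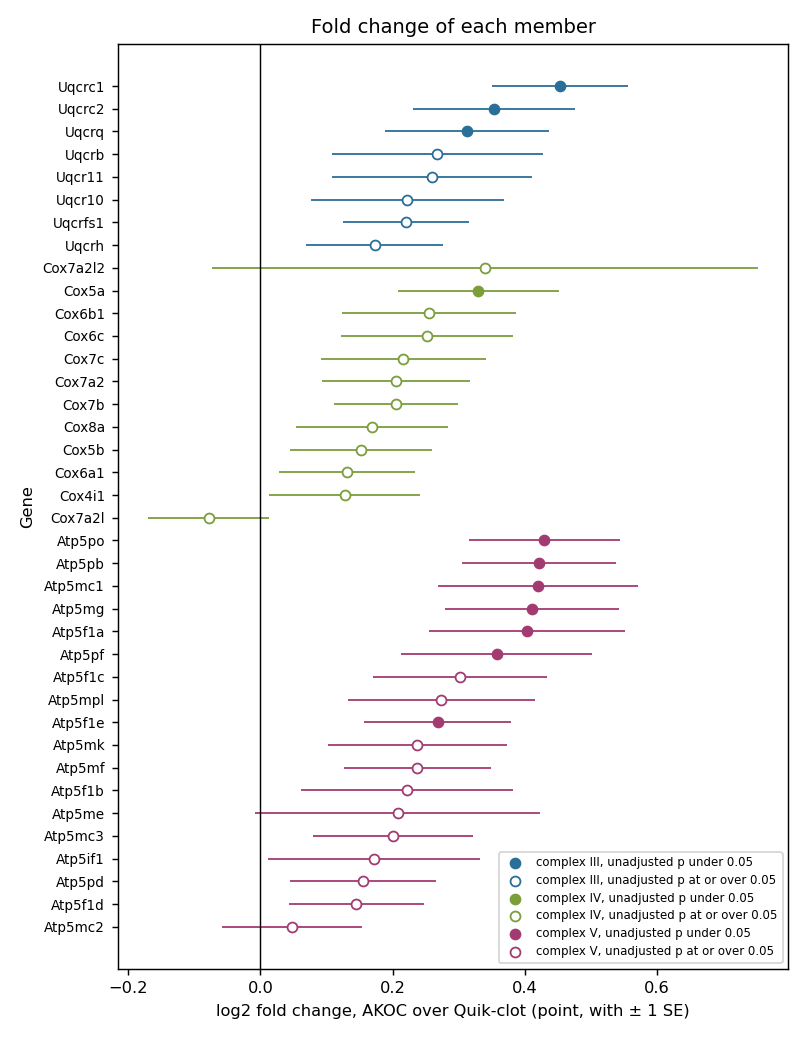
Log2 fold change of each member, AKOC over Quik-clot, from the edgeR quasi-likelihood fit (point) with 1 SE on each side (line), ordered within each complex. The points of 37 members lie right of 0, Cox7a2l lies left of it, Atp5mc2 (0.05) turns to -0.04 with scaling by library totals, and the 11 filled points have an unadjusted p under 0.05.

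Summed over each complex, TMM-scaled levels of every AKOC library lay above those of every Quik-clot library, but in complex IV they overlapped as a share of library totals. CPM here are counts scaled to 1e+06 per library after trimmed-mean (TMM) scaling. Complex III summed to 647, 724 and 652 CPM with Quik-clot and to 769, 889 and 826 CPM with AKOC, a ratio of means of 1.23. Complex IV summed to 1013, 1157 and 1097 CPM against 1189.7, 1282 and 1229 CPM, a ratio of 1.13, and complex V to 2642, 2896 and 2667 CPM against 3047, 3612 and 3372 CPM, a ratio of 1.22. With this scaling the dressings did not overlap in any of the 3 sums, and the gap was narrowest in complex IV, between Quik-clot replicate 2 and AKOC replicate 1. As a share of all counts, with no scaling factor, the members took 0.482%, 0.511% and 0.398% after Quik-clot and 0.539%, 0.523% and 0.515% after AKOC. These shares did not overlap, but Quik-clot replicate 2 and AKOC replicate 3 nearly met. Taken by complex, the shares of complex III (0.0588% to 0.0774% against 0.0784% to 0.0829%) and of complex V (0.241% to 0.310% against 0.320% to 0.328%) did not overlap. Those of complex IV did, at 0.113%, 0.124% and 0.0990% with Quik-clot and 0.128%, 0.116% and 0.117% with AKOC, where Quik-clot replicate 2 lay above AKOC replicates 2 and 3.

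**Figure D3:**
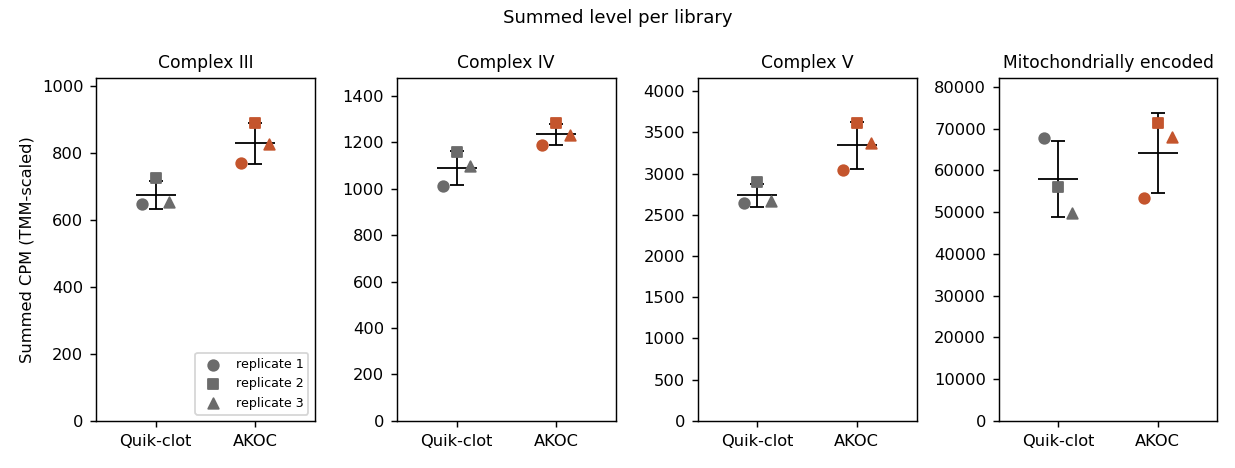
Summed TMM-scaled CPM of the members of complexes III, IV and V and of the 6 mitochondrially encoded subunits of the same complexes in each library (points), with the mean and SD of each dressing (n = 3; axes start at 0). The AKOC points lie above the Quik-clot points in the 3 nuclear-encoded sums with this scaling (complex IV overlaps as a share of library totals), and the dressings overlap in the mitochondrially encoded sum.

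The subunits that the mitochondrial genome supplies to the same complexes overlapped between dressings. Their 6 genes (CYTB of complex III, COX1, COX2 and COX3 of complex IV, ATP6 and ATP8 of complex V) summed to 67839, 56036 and 49800.5 CPM with Quik-clot and to 53310.1, 71319 and 67927 CPM with AKOC. Quik-clot replicate 1 was thus near the top and AKOC replicate 1 near the bottom, unlike in the nuclear sums. Their median log2 fold change was 0.15, with 5 of 6 positive but 3 of 6 under scaling by library totals, and 0 passed an unadjusted p under 0.05 in the edgeR test. Their SE ran from 0.25 to 0.84, against a median of 0.12 for the members. The ratio of summed member CPM to the mitochondrial sum was 6.34%, 8.52% and 8.87% after Quik-clot and 9.39%, 8.11% and 7.99% after AKOC, which overlap.

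Among single libraries, Quik-clot replicates 1 and 3 lay low and AKOC replicate 2 lay high. The median deviation of the 38 members from their own mean log2 CPM was -0.20, 0.02 and -0.19 for Quik-clot and 0.03, 0.21 and 0.14 for AKOC. Over all genes tested it stayed within -0.01 and 0.01. Of the 38 members, 19 had their lowest CPM in Quik-clot replicate 1 and 15 in Quik-clot replicate 3, while 25 had their highest in AKOC replicate 2. Over all genes tested, the same 3 shares were 20.4%, 19.3% and 13.4%. In this median deviation, Quik-clot replicate 2 stood apart from its group and close to AKOC replicate 1. Over all genes tested, its Spearman correlation was 0.979 with AKOC replicate 1. With Quik-clot replicates 1 and 3 it was 0.972 and 0.971. The members' own correlations did not single out AKOC replicate 1. Over them Quik-clot replicate 2 had 0.971 with AKOC replicate 1, 0.976 with AKOC replicate 2 and 0.977 with AKOC replicate 3. Its value with Quik-clot replicate 1 was also above that with AKOC replicate 1, and with Quik-clot replicate 3 it was lower, at 0.964. Leaving Quik-clot replicate 2 out moved the complex III median from 0.26 to 0.39.

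**Figure D4:**
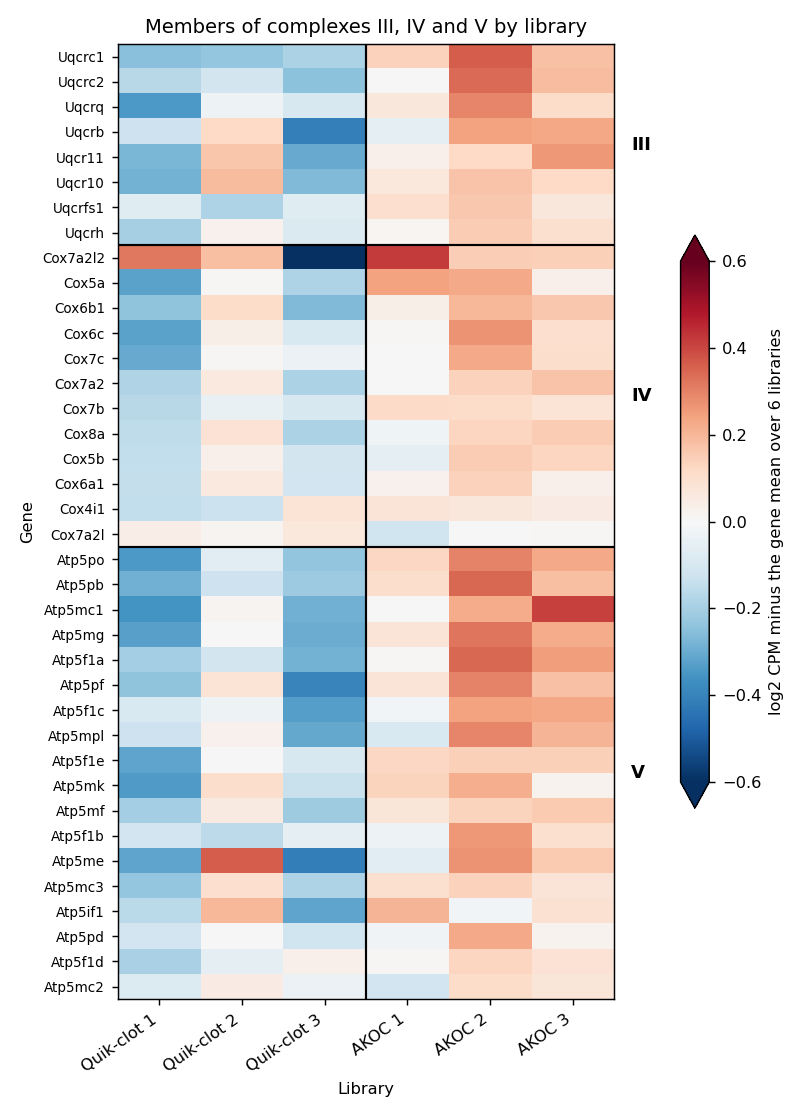
Log2 CPM of each member minus its mean over the 6 libraries (colour, from -0.6 to 0.6), with genes grouped by complex and ordered by fold change within it. Quik-clot replicates 1 and 3 are mostly blue (lower), AKOC replicate 2 mostly red (higher), and Quik-clot replicate 2 lies between them, with Cox7a2l as the member that runs the other way.

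In 14 of the 38 members every AKOC library lay above every Quik-clot library, against 9.53% of all genes tested. They were 4 in complex III, 2 in complex IV and 8 in complex V. With scaling by library totals the numbers were 2, 0 and 5, and the share of all genes was not counted under that scaling. With TMM scaling the reverse order occurred in 1 member, Cox7a2l, against 8.84% of all genes. In FPKM, which are scaled by library totals, Cox7a2l overlapped, at 40.3 to 49.4 after Quik-clot and 38.6 to 42.4 after AKOC.

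Within complex III the core proteins led. Uqcrc1, the large core protein I that faces the matrix, stood at 76.2, 77.1 and 79.6 CPM with Quik-clot and at 99.7, 117 and 102 CPM with AKOC. The Quik-clot libraries lay close together and well below all AKOC libraries. Its log2 fold change of 0.45 ± 0.10 (SE, n = 3 per dressing, as for all members) was the largest of the 38, with an edgeR quasi-likelihood Benjamini-Hochberg adjusted p of 0.281. Uqcrc2, its partner core protein, had 151, 156 and 142 CPM against 169, 214 and 192 CPM (log2 fold change 0.35 ± 0.12). The groups did not overlap, and AKOC replicate 1 was the nearest to the Quik-clot level.

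Uqcrfs1, the Rieske iron-sulfur protein that carries electrons toward cytochrome c1, had 110.2, 102 and 110.1 CPM with Quik-clot and 124, 129.5 and 122 CPM with AKOC. Again no AKOC library reached down to the Quik-clot range, with a log2 fold change of 0.22 ± 0.10. Uqcrq, a small subunit also known as the ubiquinone-binding protein, had 91.6, 114 and 109 CPM against 122, 142 and 126 CPM (0.31 ± 0.12), with Quik-clot replicate 1 well below the rest. The other 4 small subunits, Uqcrb, Uqcr10, Uqcr11 and Uqcrh, overlapped between dressings and had log2 fold changes from 0.17 to 0.27. Uqcrh, the acidic hinge protein at the cytochrome c side, was the lowest of them, at 62.7, 73.4 and 67.8 CPM against 72.7, 80.1 and 77.1 CPM. Only AKOC replicate 1 lay inside the Quik-clot range of that gene.

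The remaining nuclear subunit of complex III, Cyc1 (cytochrome c1), does not carry a Uqcr symbol and was not a member. It had 67.5, 70.1 and 70.1 CPM with Quik-clot and 72.2, 99.2 and 88.6 CPM with AKOC, a log2 fold change of 0.32 ± 0.13. The dressings did not overlap, though AKOC replicate 1 lay near the Quik-clot values.

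Complex IV had the lowest median of the 3. Cox5a, a subunit on the matrix side, was the one member under an unadjusted p of 0.05. It stood at 60.1, 75.2 and 66.0 CPM with Quik-clot and at 88.8, 87.7 and 76.5 CPM with AKOC, a log2 fold change of 0.33 ± 0.12. Quik-clot replicate 2 and AKOC replicate 3 almost touched. Cox7b, a small membrane subunit, had 109, 119 and 114 CPM against 132, 132 and 129 CPM (0.20 ± 0.09), also without overlap. Cox6b1, which bridges the monomers of the oxidase dimer, had 81.0, 103 and 79.7 CPM against 98.2, 110.1 and 107 CPM (0.26 ± 0.13). Cox6c, a further small membrane subunit, had 81.6, 104 and 95.7 CPM against 103, 123 and 109.6 CPM (0.25 ± 0.13). In both of these Quik-clot replicate 2 lay within the AKOC range.

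Cox4i1, known to bind adenine nucleotides, and Cox5b, which holds a zinc ion, had smaller values. Cox4i1 had 217, 220.4 and 255 CPM with Quik-clot and 255, 253 and 249 CPM with AKOC, a log2 fold change of 0.13 ± 0.11. Quik-clot replicate 3 was as high as the AKOC libraries. Cox5b had 81.4, 91.8 and 83.5 CPM against 86.5, 100.1 and 98.6 CPM (0.15 ± 0.11), with overlap. Cox6a1, Cox7a2, Cox7c and Cox8a, all small membrane subunits and the first a regulatory one, had log2 fold changes from 0.13 to 0.22 and overlapped. Ndufa4, now counted as a subunit of complex IV but outside the name pattern, had 139, 174 and 143 CPM against 186, 188 and 185 CPM (0.30 ± 0.12). For Ndufa4 the dressings did not overlap.

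The isoform families of complex IV kept the liver form in every library. Per transcript length, Cox4i1 made up 99.9% or more of the Cox4i1 and Cox4i2 total in each library, and Cox6a1, Cox6b1 and Cox8a at least 99.7% of theirs. Cox7a2, the ubiquitous form of subunit 7A, made up 75.0%, 78.2% and 74.5% of the FPKM of Cox7a1, Cox7a2 and Cox7a2l after Quik-clot and 79.2%, 79.4% and 79.6% after AKOC. The muscle form Cox7a1 took 0.00509% to 0.0204% of that total.

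Cox7a2l, whose protein joins complexes III and IV into supercomplexes and is not a core subunit, was the member that ran the other way. It had 56.9, 55.9 and 57.7 CPM with Quik-clot and 50.8, 55.2 and 55.5 CPM with AKOC, a log2 fold change of -0.08 ± 0.09 and an edgeR quasi-likelihood Benjamini-Hochberg adjusted p of 0.738. With TMM scaling the groups did not overlap but nearly met, and the difference was within 1 SE. Its FPKM ratio to Cox7a2, which needs no scaling between libraries, was 0.334, 0.278 and 0.342 after Quik-clot and 0.263, 0.259 and 0.256 after AKOC. All AKOC values lay below all Quik-clot values. The 2 transcripts differ in length (1290 bases for Cox7a2l, 479 for Cox7a2), and the part of length in this ratio was not tested. Cox7a2l2, a low gene with the widest error (0.34 ± 0.41), had 1.57, 1.42 and 0.513 CPM against 1.68, 1.39 and 1.38 CPM. Its positive value rested on Quik-clot replicate 3, and without that library the log2 fold change was -0.01.

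Complex V held 7 of the 11 members under an unadjusted p of 0.05, and 3 of them belong to the 4 subunits of its peripheral stalk, the arm that keeps the head from turning with the rotor. Atp5po, the stalk subunit that gives oligomycin sensitivity (OSCP), stood at 96.6, 117 and 104 CPM with Quik-clot and at 134, 151 and 143 CPM with AKOC. No libraries overlapped, and its log2 fold change of 0.43 ± 0.11 was the second largest of all members, with an edgeR quasi-likelihood Benjamini-Hochberg adjusted p of 0.302. Atp5pb, the b subunit, had 165, 185 and 173 CPM against 217, 256 and 228 CPM (0.42 ± 0.12), again without overlap. Atp5pf, the F6 subunit, had a log2 fold change of 0.36 ± 0.14 and overlapped in 1 pair of libraries, and Atp5pd, the d subunit, had 0.16 ± 0.11.

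The 5 subunits of the catalytic F1 head had log2 fold changes from 0.15 to 0.40. Atp5f1a had 459, 489 and 434 CPM with Quik-clot and 531, 671 and 628 CPM with AKOC (0.40 ± 0.15). Every AKOC library was above every Quik-clot library, with AKOC replicate 1 the closest. Atp5f1b, its partner in the catalytic hexamer, had 822, 797 and 857 CPM against 870.2, 1067 and 950.1 CPM (0.22 ± 0.16), also without overlap but with AKOC replicate 1 just above Quik-clot replicate 3. Of the central stalk, Atp5f1c (gamma) had 0.30 ± 0.13, Atp5f1e (epsilon) 0.27 ± 0.11 and Atp5f1d (delta) 0.15 ± 0.10. The FPKM ratio of Atp5f1a to Atp5f1b was 0.532, 0.585 and 0.483 after Quik-clot and 0.581, 0.599 and 0.630 after AKOC. This ratio overlapped between the dressings.

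The rotating ring is built from a c subunit that 3 genes encode, with the same mature protein and different import sequences. Atp5mc1 had 73.5, 95.6 and 77.4 CPM with Quik-clot and 94.3, 110.1 and 125 CPM with AKOC, a log2 fold change of 0.42 ± 0.15. Atp5mc3 had 122, 154 and 126 CPM against 153, 158 and 151 CPM (0.20 ± 0.12), and Atp5mc2 104, 114 and 107 CPM against 102, 119 and 116 CPM (0.05 ± 0.11). All 3 overlapped between the dressings, and Atp5mc2 was close to level. As a share of the summed FPKM of the 3 genes, Atp5mc1 made up 24.1%, 25.9% and 24.5% after Quik-clot and 26.6%, 28.0% and 31.5% after AKOC. Atp5mc2 made up 34.6%, 31.2% and 34.4% against 29.0%, 30.6% and 29.4%, while Atp5mc3 stayed between 39.1% and 44.4%. The shares of Atp5mc1 and of Atp5mc2 did not overlap between dressings, in opposite directions.

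These shares and ratios were among 21 quantities formed within libraries, chosen after the values were seen. They are not separate results, since shares within a family depend on each other. With Cox7a1 at 0.0204% or less, the shares of Cox7a2 and Cox7a2l and the ratio of Cox7a2l to Cox7a2 restate one another. The exact permutation test of 3 libraries against 3, two-sided, gave its smallest possible p of 0.1 for the shares of Atp5mc1, Atp5mc2, Cox7a2 and Cox7a2l, the ratio of Cox7a2l to Cox7a2 and the ratio of complex III to complex IV, and the Benjamini-Hochberg adjusted value was 0.35 for each. The last of these, from summed CPM, was 0.639, 0.626 and 0.595 after Quik-clot and 0.647, 0.693 and 0.672 after AKOC. Complex V over complex III overlapped, lying between 3.96 and 4.09 in all 6 libraries.

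Among the small membrane subunits of complex V, which hold its dimers at the cristae edge, Atp5mg (subunit g) had the largest log2 fold change. It stood at 119, 149.7 and 122 CPM with Quik-clot and 158, 187 and 175 CPM with AKOC, a log2 fold change of 0.41 ± 0.13 without overlap. The other 4, Atp5me, Atp5mf, Atp5mk and Atp5mpl, had log2 fold changes from 0.21 to 0.27. Atp5me ranged from 34.5 to 59.2 CPM after Quik-clot. Atp5if1, the inhibitor, had 12.5, 16.1 and 11.2 CPM against 16.1, 13.8 and 14.9 CPM (0.17 ± 0.16), with overlap. Relative to Atp5f1b its FPKM was 5.56%, 7.37% and 4.79% after Quik-clot and 6.76%, 4.73% and 5.74% after AKOC, with no separation of the dressings.

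Values of single members carry a limit from counting, since respiratory subunit genes have many processed copies. RefSeq lists 59 pseudogenes under the name pattern, and 24 of the 38 members have at least one, with 8 for Atp5mg. Reads may have been shared between a gene and such copies, so those single values are uncertain. Uqcrc1, Uqcrc2, Uqcrfs1, Cox5a, Cox7a2l and Atp5f1a have none listed under their own symbols. Copies under other symbols were not searched for, so these genes may have some too.

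The neighbouring complexes gave values of the same size. Of the 37 nuclear subunits of complex I, the NADH dehydrogenase, 35 had a positive log2 fold change and the median was 0.25, and 11 were higher at an unadjusted p under 0.05 (0 with scaling by library totals). Ndufv1 (0.36 ± 0.09), Ndufa10 (0.45 ± 0.11) and Ndufv2 (0.43 ± 0.11) had the smallest p-values. All 4 subunits of complex II, succinate dehydrogenase, were positive and under an unadjusted p of 0.05 in the edgeR test (0 with scaling by library totals), led by Sdhb at 0.45 ± 0.13, Sdha at 0.37 ± 0.12 and Sdhc at 0.27 ± 0.11. Cycs, cytochrome c itself, had 87.5, 109 and 99.3 CPM with Quik-clot and 118, 108 and 128 CPM with AKOC (0.26 ± 0.12), with overlap. The carriers Slc25a5 (adenine nucleotides) and Slc25a4 (its heart and muscle form) had 0.12 ± 0.13 and -0.11 ± 0.21.

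Assembly factors, which help build a complex but are not part of it, were counted for each of the 3. Of 6 factors for complex V, 6 were positive (5 with scaling by library totals), with a median of 0.33. Tmem70, which helps build the c ring, had 24.1, 34.2 and 22.8 CPM with Quik-clot and 38.7, 42.8 and 44.8 CPM with AKOC, a log2 fold change of 0.64 ± 0.17. Its dressings did not overlap, and the edgeR quasi-likelihood Benjamini-Hochberg adjusted p was 0.304. Dmac2l (0.49 ± 0.20) and Tmem242 (0.47 ± 0.20) came next. For complex III, 7 of 9 were positive (6 with scaling by totals), with a median of 0.21 and 0 under an unadjusted p of 0.05. Their smallest p-values belonged to Uqcc2 (0.39 ± 0.19), Uqcc3 (0.29 ± 0.23) and Lyrm7 (0.21 ± 0.17). For complex IV, 12 of the 23 factors in the table were positive (8 with scaling by totals) and the median was 0.01 (-0.08 with scaling by totals). Cox15, needed for heme A, had 0.38 ± 0.12, Higd1a -0.38 ± 0.18 and Surf1 -0.22 ± 0.12.

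The regulators known to act on respiratory genes lay mostly on the other side. Of 12 measured, 9 had negative log2 fold changes (10 with scaling by totals), with a median of -0.22, and in 5 every AKOC library was below every Quik-clot library. Pprc1, a coactivator of the PGC-1 family, had 8.71, 7.38 and 9.16 CPM with Quik-clot and 6.35, 4.41 and 3.68 CPM with AKOC (-0.80 ± 0.23). Nrf1 had 7.97, 6.65 and 7.38 CPM against 5.10, 5.23 and 5.61 CPM (-0.46 ± 0.14), and Ppargc1b, another PGC-1 coactivator, 2.46, 3.23 and 1.57 CPM against 1.21, 1.36 and 1.38 CPM (-0.88 ± 0.30). These 3 did not overlap and were under an unadjusted p of 0.05 in the edgeR test, with Benjamini-Hochberg adjusted p from 0.312 to 0.358. Tfam, which packages and transcribes the mitochondrial genome, had a log2 fold change of 0.20 ± 0.11, and Gabpa, the DNA-binding part of GABP, -0.03 ± 0.10.

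The libraries were of near-equal depth, from 40402312 to 41455378 counts. Hepatocyte markers were high in all of them, with summed CPM of 115936 to 179177 after Quik-clot and 130914 to 193120.3 after AKOC, and 4 of 10 had positive log2 fold changes. The 10 macrophage markers were all negative, 3 of them under an unadjusted p of 0.05, with sums of 960 to 1462 CPM with Quik-clot and 773 to 1102 CPM with AKOC. The 8 tested T and NK cell markers were all negative too, at sums of 69.8 to 114 CPM and 51.9 to 72.6 CPM. Endothelial markers summed to 482, 428 and 494 CPM with Quik-clot and 423, 412 and 384 CPM with AKOC. These sums do not overlap with TMM scaling but nearly meet, and they overlap as a share of library totals. Of the 8 endothelial markers 6 were negative, 2 of them under an unadjusted p of 0.05. Of 8 stellate cell and fibroblast markers 5 were positive, 2 of them under that p, at sums of 95.4 to 221 CPM and 193 to 248 CPM. Of 6 red cell markers 5 were positive with a median log2 fold change of 1.23, at sums of 49.0 to 949.9 CPM and 729 to 1515 CPM. The part of these cell types in the members' values was not tested.

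With the tested genes in 5 equal groups from the shortest to the longest, the median log2 fold change went from 0.05 through 0.00, -0.01 and -0.04 to -0.08. The 19 shorter members, 289 to 707 bases long, had a median of 0.22 and the 19 longer ones, 752 to 1847 bases, 0.27. Of the 38 members, 34 fall in the shortest of the 5 groups, so the members span little of that range. With an offset for length the medians were 0.19 for complex III, 0.08 for complex IV and 0.15 for complex V. Quik-clot replicate 2, the library of its group nearest to AKOC, was high mainly in short members: across the 38 members its deviation correlated with log2 length at r = -0.60 (Spearman -0.54), as a description over genes of 1 library that are not independent. The part of length in the members' values was not tested.

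**Figure D5:**
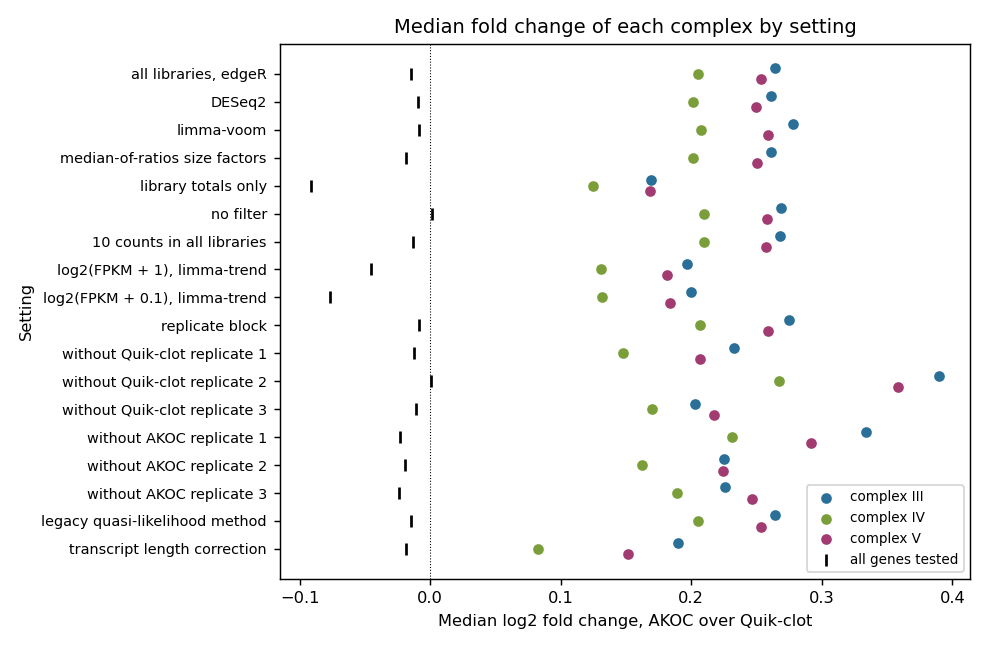
Median log2 fold change of the members of each complex (points) and of all genes tested (bars) under each setting of the analysis. The points stay right of the bars in every setting shown, from 0.08 for complex IV with the length correction to 0.39 for complex III without Quik-clot replicate 2.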

How the data were processed

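Total RNA of 6 rat liver samples, 3 per dressing, was sequenced. Whole-number read counts per gene, not normalized, were deposited by the authors, with a table of FPKM for the same genes and samples. Per the submitters' processing notes, fastp, HISAT2 and HTSeq were used on build mRatBN7.2, and the sources used here give no versions, annotation or strand setting. The deposited FPKM equalled count over transcript length and library total within a relative error of 6.23e-07. They keep depth and were used for levels between genes.

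Genes were filtered with filterByExpr (minimum count 10, minimum total 15), leaving 13872, scaled by TMM (factors 0.902 to 1.12) and tested with the two-sided edgeR 4.0.16 quasi-likelihood F test in R 4.3.3, dressing as the only term, with Benjamini-Hochberg adjustment over all genes. SE is the absolute log2 fold change over the square root of F. Log2 CPM used a prior count of 2. Alternatives were DESeq2 1.42.0, limma 3.58.1 (voom, and trend on log2 FPKM plus 1 or 0.1), other scalings and filters, a replicate block and leaving out each library. The fit was checked on simulated data.

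The members, lists and tests were chosen with earlier results of these data known. Named, with values by library, were, per complex, the 4 members of smallest unadjusted p and those of highest and lowest fold change, the isoform families, and a fixed set of core subunits. Of each other list the 3 genes of smallest p were named, most of them by fold change and SE. Cyc1, Ndufa4, Cycs, Tfam and Gabpa, and markers at 0, were given beside them. No 2 libraries of a dressing agreed within sampling noise (chi-square per degree of freedom from 142). The closest pair of all crossed the dressings, Quik-clot replicate 2 with AKOC replicate 1, at 72.9. Promoters came from RefSeq (GRCr8).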

Additional observations from a re-analysis of the deposited data

How the results depend on the processing

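Over 38 members and 17 settings, 639 of 646 combinations kept their direction and their side of an adjusted p of 0.05. Uqcrc1 passed with DESeq2 (0.45, DESeq2 adjusted p = 0.0442, against 0.164 to 0.648 in the other settings), and 6 changed sign. Atp5mc2 changed sign with scaling by library totals (-0.037), on log2(FPKM + 1) (-0.030), on log2(FPKM + 0.1) (-0.0301) and with the length correction (-0.042). Leaving out 1 library gave Atp5mc2 -0.0014 (AKOC replicate 2) to 0.11 and Cox7a2l2 -0.014 (Quik-clot replicate 3) to 0.61. The cause was not tested. Genes called were 186 higher and 94 lower of 20074 with DESeq2, against 0 and 0 of 13872 with edgeR. They were 0 to 12 higher and 0 to 6 lower when a library was left out, the most without Quik-clot replicate 2. Members higher at an unadjusted p under 0.05 were 3 in complex III, 1 in complex IV and 7 in complex V. They became 1, 0 and 0 with library totals and with both FPKM settings, where 3.26% to 3.53% of all genes tested were higher. Complex IV had 0 with the length correction, an alternative chosen after seeing the data like the legacy quasi-likelihood method. Leaving out 1 library gave 1 to 6, 0 to 4 and 2 to 13, with complex III medians from 0.20 to 0.39, complex IV medians from 0.15 to 0.27 and complex V medians from 0.21 to 0.36. The highest counts came without Quik-clot replicate 2, where 9.93% of all genes tested were higher, against 6.78% with all libraries. The complex IV median was 0.082 with the length correction, against 0.21. Members without overlap were 2, 0 and 5 with library totals, against 4, 2 and 8, and the share of all genes with library totals was not counted. Same-numbered libraries of the 2 dressings did not deviate together (r from -0.20 to -0.07). These values were centred within each dressing of 3 libraries, so they cannot show whether the replicate number marks a pairing. With the replicate block 1 gene was called higher, and complex IV had 0 members at an unadjusted p under 0.05. At 3 libraries per dressing, the members' SE of about 0.12 limits what can be seen.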
